A study of Homo sapiens with 12 samples.

Results

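Glycolysis and the response to low oxygen were followed in Regorafenib-resistant hepatoma cells through a list of 36 genes, chosen by name with earlier results of these data known, which covers glucose carriers, the glycolytic enzymes, the enzymes and carriers that decide the fate of pyruvate, and targets of the hypoxia-inducible factors (HIF). Of the 36 genes, 33 were listed among the 15601 genes of the table over all libraries, and ALDOA, ALDOC and CA9 were not analysed here. SNU449 is a human hepatocellular carcinoma line, and SNU449-Axl-KO is its derivative without the receptor tyrosine kinase Axl. Each line was studied as naive control cells (SNU449-ctrl and SNU449-Axl-KO-ctrl) and after adaptation to Regorafenib (Rego), a multikinase inhibitor, at rising concentrations until 2 times the IC50 (SNU449-Rego and SNU449-Axl-KO-Rego). QuantSeq, which reads the 3' ends of polyadenylated RNA, gave 12 libraries, 3 technical replicates of 1 cell population for each of the 4 groups. Therefore, the p-values below measure the spread between libraries of a population, and effects of Rego or Axl cannot be told apart from other differences between the populations. The labels name no low-oxygen treatment of any group, and adaptation to Rego cannot be told apart from the presence of the drug.

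In glycolysis, glucose is phosphorylated, split into triose phosphates and oxidised to pyruvate, which either enters mitochondria or is reduced to lactate. HIF is a transcription factor whose alpha subunit is hydroxylated and degraded in the presence of oxygen. When stabilised, it binds a core motif, ACGTG or GCGTG, in promoters and raises the transcription of glycolytic enzymes, of pyruvate dehydrogenase kinases and of mitophagy receptors, and hepatocellular carcinomas are known for high glycolytic rates.

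A library value is 2 raised to the variance-stabilised, preparation-corrected level of a gene, rounded, and a level is log2(value + 1). Because variance stabilisation compresses low counts, mean normalized counts per group, solved from the means that the tables list over different sets of libraries, are given beside it. Changes were fitted with limma, and a gene was called when its Benjamini-Hochberg adjusted p over all 15601 genes was under 0.05. AXL itself, the targeted gene, had mean normalized counts of 753 in SNU449-ctrl and 1062 in SNU449-Rego, against 27.4 in SNU449-Axl-KO-ctrl and 63.7 in SNU449-Axl-KO-Rego. All 7 mesenchymal markers examined were listed, with summed mean normalized counts between 20514 and 24319, most of them from VIM. FN1 differed widely, with 2563 in SNU449-ctrl, 339 in SNU449-Rego, 584 in SNU449-Axl-KO-ctrl and 2946 in SNU449-Axl-KO-Rego, and SPARC went from 1623 in SNU449-ctrl to between 849 and 989 in the other groups. Of 7 epithelial markers 4 were listed, CDH1 and EPCAM not among them, with sums of 1097 in SNU449-ctrl, 1276 in SNU449-Rego, 1795 in SNU449-Axl-KO-ctrl and 2292 in SNU449-Axl-KO-Rego. Of 14 hepatocyte markers only 5 were listed, and APOA1, with a mean of 1.14 over all libraries, could not be solved per group. The sum of the other listed ones was 1.52 in SNU449-ctrl and 0.33 in SNU449-Rego. It was 85.1 in SNU449-Axl-KO-ctrl and 560 in SNU449-Axl-KO-Rego, where the fibrinogen genes FGB and FGG made up most of it. ALB, APOB and HNF4A were among the 9 that were not listed. Of 3 blood cell markers 2 were listed, CD74 with at most 4.97 in any group and PTPRC with a mean of 1.12 over all libraries. None of the 3 endothelial markers was listed. The part of these markers' differences in the results below was not tested. In such bulk RNA, fewer cells that express a gene and less RNA of it per cell cannot be told apart.

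Comparing Rego-resistant with control SNU449 cells, 9 of the 33 members fell and none rose, where 3.5% of all genes fell, 4.31% rose and 7.81% were called in either direction. These 9 were the glucose carrier SLC2A3, the hexokinase HK1, the phosphoglycerate kinase PGK1, the lactate dehydrogenase LDHA, the pyruvate dehydrogenase kinases PDK1 and PDK3, the bifunctional regulator PFKFB4 and the mitophagy receptors BNIP3 and BNIP3L. The log2 fold change was negative for 24 members and positive for 8, with a median of -0.52 over the members, while the median over all genes was -0.000 and 50.1% of all genes were negative. At an unadjusted p under 0.05, limma gave 19 members in either direction, but the share of all genes at that threshold was not counted. Leaving out 1 library at a time left 8 to 10 members called, but not always the same ones. Without SNU449-Rego replicate 3, 6 of the 9 remained, with BNIP3L, LDHA and PGK1 lost and ENO2, MXI1 and PFKP added. Without SNU449-ctrl replicate 1, 7 of the 9 remained, with PDK3 and PFKFB4 lost and CA12 and PGAM1 added.

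**Figure D1:**
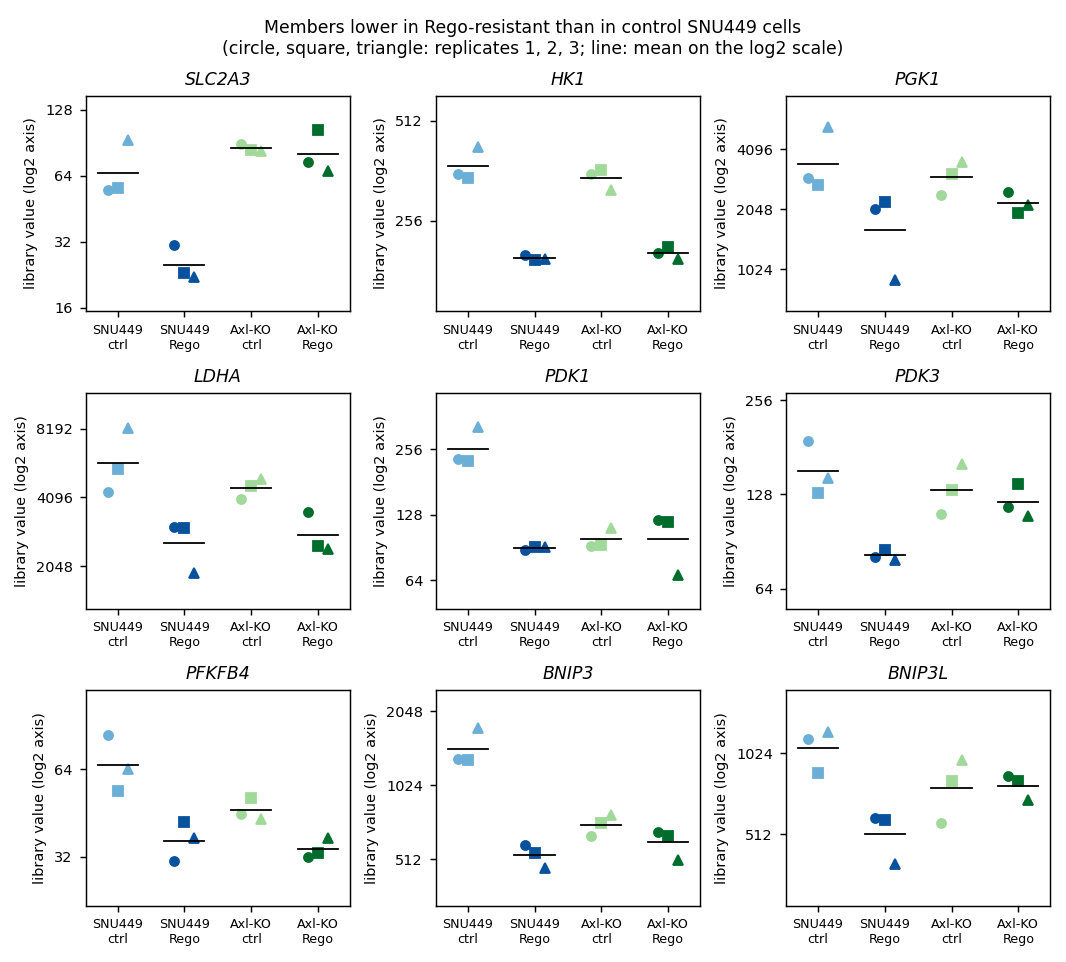
Library values (log2 axis) of the 9 members called between SNU449-Rego and SNU449-ctrl, in the 4 groups (Axl-KO stands for SNU449-Axl-KO). Circles, squares and triangles are replicates 1, 2 and 3, and lines are the group means on the log2 scale. In each panel the 3 SNU449-Rego libraries sit below the 3 SNU449-ctrl libraries, the SNU449-Axl-KO groups lie apart for HK1, LDHA and PFKFB4, and for PDK1 and BNIP3 only SNU449-ctrl is high.

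The promoters of LDHA, PGK1 and BNIP3 are shown because these genes fell and carry the most copies of the HIF core among the called members. The windows reach from 250 bases before to 50 bases after the RefSeq transcription start on GRCh38.p14, 5' to 3' on the strand of the gene, at chr11:18394313-18394612 (plus strand) for LDHA, chrX:78103998-78104297 (plus strand) for PGK1 and chr10:131981874-131982173 (minus strand) for BNIP3. Capitals mark the letters ACGTG or GCGTG, or their reverse complements CACGT and CACGC on the other strand, which overlap each other where CACGTG stands.
LDHA: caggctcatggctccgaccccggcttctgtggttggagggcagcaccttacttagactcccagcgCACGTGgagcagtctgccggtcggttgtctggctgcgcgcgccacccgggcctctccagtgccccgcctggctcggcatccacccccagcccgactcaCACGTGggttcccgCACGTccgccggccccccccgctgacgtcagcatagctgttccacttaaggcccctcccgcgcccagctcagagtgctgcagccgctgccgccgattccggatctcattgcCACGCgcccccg
PGK1: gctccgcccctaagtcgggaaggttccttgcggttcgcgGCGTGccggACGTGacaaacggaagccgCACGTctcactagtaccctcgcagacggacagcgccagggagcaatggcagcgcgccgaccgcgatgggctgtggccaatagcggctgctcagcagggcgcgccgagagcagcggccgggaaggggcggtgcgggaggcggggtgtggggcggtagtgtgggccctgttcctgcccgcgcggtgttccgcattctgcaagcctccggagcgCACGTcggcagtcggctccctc
BNIP3: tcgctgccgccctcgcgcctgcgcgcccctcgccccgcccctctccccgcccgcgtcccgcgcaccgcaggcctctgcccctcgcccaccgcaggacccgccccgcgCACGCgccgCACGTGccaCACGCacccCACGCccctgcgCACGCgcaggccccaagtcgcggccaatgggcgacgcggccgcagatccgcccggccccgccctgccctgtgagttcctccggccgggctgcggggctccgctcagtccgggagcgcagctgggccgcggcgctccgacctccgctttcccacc
At least 1 match was found in 48.4% of the windows of 27305 genes and in 24 of the 31 members with a window (77.4%). Of the members with a window, 5 of the 7 that fell in SNU449-Rego (71.4%) and 16 of the 21 that were tested and not called (76.2%) held a match. With 2 or more matches the shares were 4 of 7 (57.1%) and 6 of 21 (28.6%), against 23.2% of all genes. Each CACGTG counted as 2 matches, so that a window with a single such site is among these. PDK3 held 2 matches and PFKFB4 held 1, whereas the windows of HK1 and PDK1 at the most upstream listed start held none. Such a match is a description of the sequence and not a measured binding site.

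Among the glucose carriers, SLC2A3 (chromosome 12, 7919230 to 7936187 on GRCh38), which encodes the high-affinity carrier GLUT3, had library values of 55, 56 and 93 in SNU449-ctrl and of 31, 23 and 22 in SNU449-Rego. The SNU449-Axl-KO-ctrl libraries were at 89, 84 and 83 and the SNU449-Axl-KO-Rego libraries at 74, 104 and 67. Thus only SNU449-Rego was low, and its libraries did not overlap those of any other group. The level fell by 1.36 on the log2 scale from 6.06 ± 0.424 to 4.70 ± 0.259 (SD, n = 3), with a SE of 0.236 and an adjusted p of 0.0012 by limma. Its mean normalized counts were 40.4 in SNU449-ctrl, 63.4 in SNU449-Axl-KO-ctrl and 64.6 in SNU449-Axl-KO-Rego, while that of SNU449-Rego was solved as 0, so the change on the level scale is compressed. SLC2A1, which encodes the ubiquitous carrier GLUT1, was not called, with values of 440, 428 and 316 in SNU449-ctrl and of 516, 281 and 584 in SNU449-Rego.

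In the upper part of glycolysis, HK1, which phosphorylates glucose, was the only one of 7 tested members that fell in SNU449-Rego. HK1 (chromosome 10, 69269984 to 69401884) had values of 354, 344 and 426 in SNU449-ctrl and of 202, 195 and 196 in SNU449-Rego. In the Axl-deficient cells, the values were 354, 364 and 316 without and 204, 213 and 196 with Rego resistance. HK1 was the one member called in both backgrounds, and resistant and control libraries overlapped in neither. It changed by -0.91 in SNU449 (SE 0.176, adjusted p = 0.00299) and by -0.75 in SNU449-Axl-KO (SE 0.176, adjusted p = 0.0208, limma). The call in SNU449-Axl-KO was lost when SNU449-Axl-KO-ctrl replicate 1 or 2, or any of the SNU449-Axl-KO-Rego libraries was left out, with adjusted p-values between 0.0672 and 0.125 and changes between -0.79 and -0.70. The paralog HK2, typical of tumours, was near the floor of the assay, with mean normalized counts of 0.14 in SNU449-ctrl and at most 10.4 elsewhere, and its change of 0.47 in SNU449 had an adjusted p of 0.107. 

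GPI, which interconverts the hexose phosphates, stayed within values of 1994 to 2570 over all 12 libraries, and its change in SNU449 was 0.00 with a 95% confidence interval of -0.36 to 0.37. PFKM, the muscle isoform of phosphofructokinase, had values of 130 to 177 and a change of 0.01 (-0.38 to 0.40). The liver isoform PFKL had values of 373, 339 and 375 in SNU449-ctrl and of 203, 277 and 260 in SNU449-Rego, and the groups did not overlap, but its change of -0.56 did not pass the test (adjusted p = 0.0971, limma). For the platelet isoform PFKP the change was -0.48 (adjusted p = 0.221), and for TPI1, which interconverts the triose phosphates, it was -0.70 (adjusted p = 0.159). Over the 12 libraries, values of PFKP ranged from 1305 to 2499, those of TPI1 from 625 to 2487 and those of HK2 from 21 to 40.

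In the lower part of glycolysis, where ATP is gained, all 6 members had negative changes in SNU449, and only PGK1 was called. PGK1 (chromosome X, 77910739 to 78129295) had values of 2919, 2712 and 5305 in SNU449-ctrl and of 2061, 2224 and 903 in SNU449-Rego. In the Axl-deficient cells, they were 2409, 3070 and 3515 in control and 2497, 1953 and 2148 in resistant libraries, which overlapped. Both SNU449 groups held a library that stood apart, the high replicate 3 of SNU449-ctrl and the low replicate 3 of SNU449-Rego. The change was -1.11 (SE 0.306, adjusted p = 0.0304, limma). Without SNU449-ctrl replicate 3 it was -0.71 (adjusted p = 0.188), and without SNU449-Rego replicate 3 it was -0.56 (adjusted p = 0.228), so that the call for PGK1 rested on these libraries. The other members changed by -0.19 (ENO1, enolase) to -0.77 (PGAM1, phosphoglycerate mutase, adjusted p = 0.0703), with GAPDH, which oxidises the triose phosphate, at -0.45, ENO2 at -0.64 and the pyruvate kinase PKM at -0.53. Values over the 12 libraries ranged from 7410 to 14311 for ENO1, from 4579 to 11224 for GAPDH, from 1655 to 3744 for PKM, from 108 to 230 for ENO2 and from 52 to 128 for PGAM1. Many of these genes have processed pseudogenes, so that their reads may be split or lost. Of the members, PGAM1 and BNIP3 each had 1 pseudogene in the table, with a mean normalized count of 2.38 and 120, respectively.

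At the fate of pyruvate, LDHA, which turns pyruvate into lactate, had values of 4329, 5461 and 8227 in SNU449-ctrl and of 3043, 3008 and 1910 in SNU449-Rego. In the Axl-deficient background, the values were 4045, 4576 and 4937 in control and 3546, 2514 and 2436 in resistant libraries. The groups did not overlap in either background, and SNU449-ctrl replicate 3 was the highest and SNU449-Rego replicate 3 the lowest of all libraries. LDHA (chromosome 11, 18394560 to 18408425) fell by 1.16 on the log2 scale in SNU449, from a level of 12.50 ± 0.469 to 11.34 ± 0.383 (SD, n = 3; SE 0.249, adjusted p = 0.00649, limma). Without SNU449-Rego replicate 3 the change was -0.86 (adjusted p = 0.0616). In mean normalized counts, LDHA went from 5874 to 2158 in SNU449 and from 4833 to 3396 in SNU449-Axl-KO, where the change of -0.69 did not pass the test (adjusted p = 0.13).

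PDK1, a kinase that shuts off pyruvate dehydrogenase and so keeps pyruvate out of mitochondria, showed the largest fall among the members on the level scale. That scale compresses low counts, so members with lower counts, such as SLC2A3 and PFKFB4, cannot be ranked against PDK1 by it. Its values were 231, 226 and 326 in SNU449-ctrl and 88, 91 and 91 in SNU449-Rego. The SNU449-Axl-KO-ctrl libraries had values of 92, 93 and 112, and the SNU449-Axl-KO-Rego libraries 121, 119 and 68. Accordingly, PDK1 was high in SNU449-ctrl only, and the other 3 groups lay close together in library values. In mean normalized counts, SNU449-Rego (50.1) was below SNU449-Axl-KO-ctrl (85.4) and SNU449-Axl-KO-Rego (90.1). In SNU449 the level fell by 1.50 on the log2 scale, from 8.01 ± 0.295 to 6.51 ± 0.0276 (SD, n = 3; SE 0.232, adjusted p = 0.000428, limma), and the mean normalized count went from 253 to 50.1. In the Axl-deficient cells the change was 0.01, with a 95% confidence interval of -0.48 to 0.50. 

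The paralog PDK3 had values of 189, 129 and 144 in SNU449-ctrl and of 81, 85 and 79 in SNU449-Rego, against 111, 132 and 160 in SNU449-Axl-KO-ctrl and 117, 138 and 109 in SNU449-Axl-KO-Rego. SNU449-Rego was the low group and did not overlap the others. The change in SNU449 was -0.89 (SE 0.206, adjusted p = 0.0112, limma), or -0.68 (adjusted p = 0.0814) without SNU449-ctrl replicate 1. The monocarboxylate carriers SLC16A1 and SLC16A3, which export lactate, did not pass the test, with changes of 0.12 and 0.13 and values of 750 to 987 and 24 to 57 over the 12 libraries. LDHB, which favours the reaction from lactate to pyruvate, had values of 21 to 22, near the floor, in all 6 SNU449 libraries.

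Of the regulators of phosphofructokinase, PFKFB4, a kinase and phosphatase that sets the level of its allosteric activator, had values of 84, 54 and 64 in SNU449-ctrl and of 31, 42 and 37 in SNU449-Rego. In SNU449-Axl-KO they were 45, 51 and 43 in control and 32, 33 and 37 in resistant libraries. Resistant and control libraries overlapped in neither background, and in SNU449 the change was -0.85 (SE 0.203, adjusted p = 0.0137, limma). Without SNU449-ctrl replicate 1 it was -0.62 (adjusted p = 0.097) and without SNU449-Rego replicate 1 it was -0.70 (adjusted p = 0.0886). Its mean normalized counts were low, at 40.3 and 6.26. PFKFB3, the more strongly expressed isoform with 2000 and 1543, changed by -0.20 and was not called, with values of 1276 to 2699 over the 12 libraries.

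Among the hypoxia targets outside glycolysis, BNIP3, which tethers mitochondria to autophagosomes, had values of 1311, 1302 and 1749 in SNU449-ctrl and of 587, 545 and 474 in SNU449-Rego. In the Axl-deficient cells, they were 637, 717 and 772 in control and 662, 638 and 507 in resistant libraries. As for PDK1, SNU449-ctrl was the single high group, and SNU449-Rego had the lowest mean normalized count, with 409 against 762 in SNU449-Axl-KO-ctrl and 687 in SNU449-Axl-KO-Rego. BNIP3 (chromosome 10, 131967684 to 131981967) fell by 1.43 on the log2 scale in SNU449, from 10.49 ± 0.243 to 9.06 ± 0.156 (SD, n = 3; SE 0.194, adjusted p = 0.000125, limma), and its mean normalized count went from 1459 to 409. Its paralog and fellow mitophagy receptor BNIP3L had values of 1156, 861 and 1227 in SNU449-ctrl and of 590, 580 and 398 in SNU449-Rego. The Axl-deficient libraries had 565, 808 and 966 in control and 841, 804 and 687 in resistant cells, which overlapped. The change of BNIP3L in SNU449 was -1.05 (SE 0.23, adjusted p = 0.00738), or -0.81 (adjusted p = 0.0653) without SNU449-Rego replicate 3. Both receptors thus fell in Rego-resistant SNU449 cells.

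None of the other 8 members outside glycolysis and the fate of pyruvate passed the test in SNU449. VEGFA, the angiogenic growth factor, changed by -0.21 (adjusted p = 0.62) and the vasodilator peptide ADM by 0.51 (adjusted p = 0.141), with values of 769, 829 and 765 in SNU449-ctrl and of 955, 1264 and 1167 in SNU449-Rego. ADM had the largest positive change of the 33 members on the level scale, and its groups did not overlap. MXI1, a MYC antagonist, changed by -0.76 (adjusted p = 0.0632), DDIT4, an inhibitor of mTORC1, by -0.54, the histone demethylase KDM3A by -0.42 and the thiol oxidase ERO1A by -0.27. NDRG1, the product of which is a stress response protein, and the carbonic anhydrase CA12 had mean normalized counts under 14 in every group and changes of 0.41 and -0.52. Over the 12 libraries, values ranged from 108 to 191 for VEGFA, from 108 to 312 for MXI1, from 108 to 425 for DDIT4, from 97 to 176 for KDM3A, from 194 to 346 for ERO1A and from 19 to 40 for NDRG1.

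**Figure D2:**
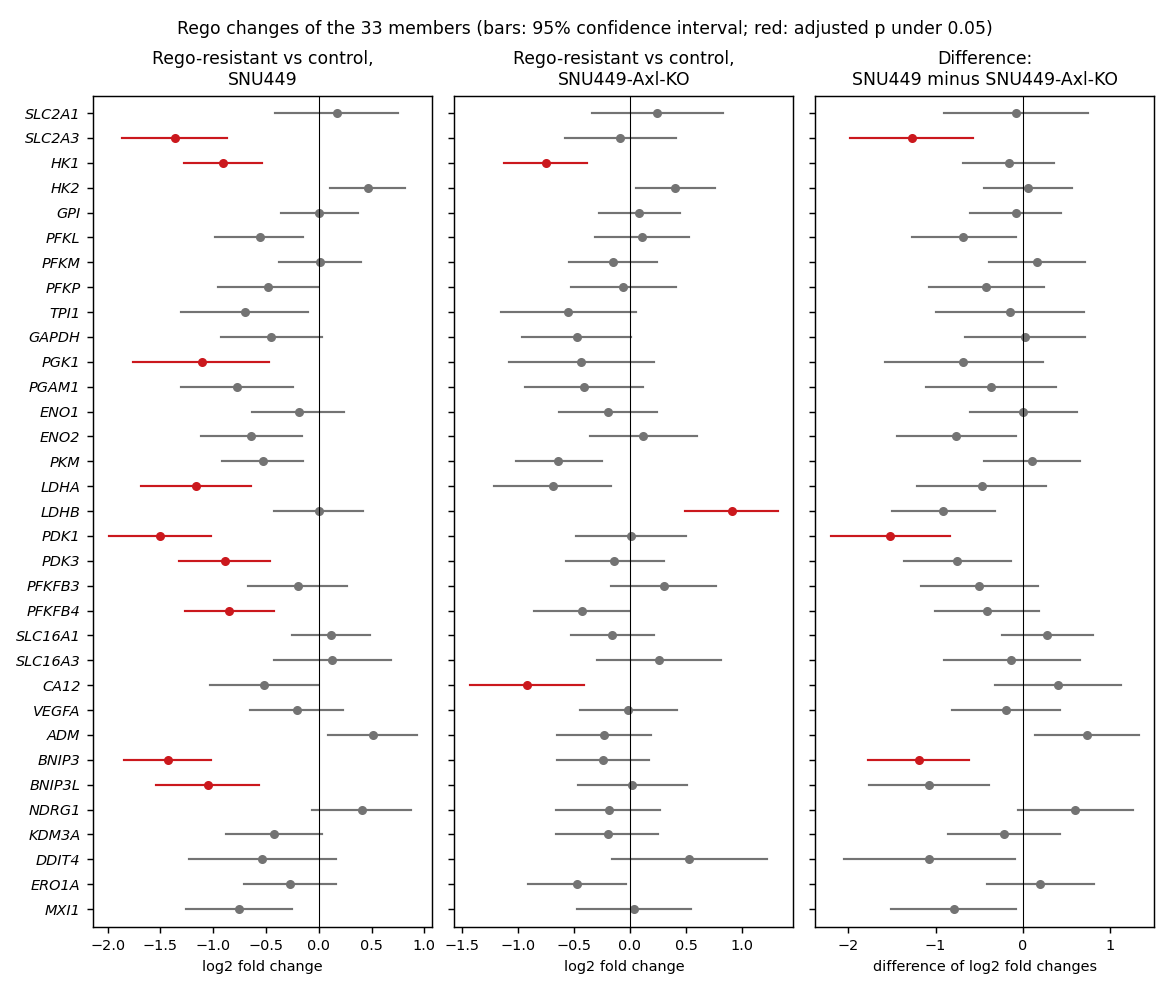
Log2 fold changes of the 33 members, ordered by role, between Rego-resistant and control cells in SNU449 (left) and SNU449-Axl-KO (middle), and the difference of both changes (right). Points are limma estimates, bars are 95% confidence intervals, and red marks an adjusted p under 0.05. There are 9 red members on the left, all negative, 3 in the middle and 3 on the right.

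Adaptation to Rego was also examined in the Axl-deficient background. In SNU449-Axl-KO cells, HK1 and CA12 fell and LDHB rose, 3 members of 33, where 4.35% of all genes were called, 2.54% higher and 1.81% lower. The median change of the members was -0.15, with 21 negative and 12 positive, against 0.007 over all genes. With levels centred on the spike-in RNAs, which shifted the median of all genes to 0.18, the median of the members was 0.03 and only LDHB was called. Without SNU449-Axl-KO-ctrl replicate 2, SNU449-Axl-KO-Rego replicate 2 or SNU449-Axl-KO-Rego replicate 3, no member was called, and without SNU449-Axl-KO-ctrl replicate 1 or SNU449-Axl-KO-Rego replicate 1 only 1 was.

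LDHB had values of 31, 21 and 22 in SNU449-Axl-KO-ctrl and of 37, 59 and 46 in SNU449-Axl-KO-Rego, the only group with all libraries above 22. Its level rose by 0.91 (SE 0.198, adjusted p = 0.0127, limma) at mean normalized counts of 2.76 and 19.4. In SNU449-ctrl and SNU449-Rego these counts were 0.27 and 0. LDHB was listed for only 3 of the 6 group pairs, and a minimum mean value of 32 left it out. It thus passed the filter of weakly expressed genes mainly through SNU449-Axl-KO-Rego, where it was high, and its calls are no independent support. The call was lost without SNU449-Axl-KO-ctrl replicate 2 or 3 or SNU449-Axl-KO-Rego replicate 2 or 3, with changes between 0.70 and 0.91 and adjusted p-values between 0.0519 and 0.135. CA12, a membrane carbonic anhydrase, had values of 51, 44 and 32 in SNU449-Axl-KO-ctrl and of 25, 22 and 18 in SNU449-Axl-KO-Rego, and the groups did not overlap. In SNU449 its values were 25, 35 and 52 in control and 25, 22 and 27 in resistant libraries, which overlapped. Its mean normalized counts went from 13.5 to 0.678 in SNU449 and from 13.8 to 0.712 in SNU449-Axl-KO. The difference between the backgrounds was 0.40 (adjusted p = 0.58, limma), so the fall is not shown to be particular to Axl-deficient cells. CA12 was listed for 4 of the 6 group pairs, and a minimum mean value of 32 left it out. The change of CA12 in SNU449-Axl-KO was -0.92 (adjusted p = 0.0364), and the call was lost without SNU449-Axl-KO-ctrl replicate 1 or 2 or any SNU449-Axl-KO-Rego library, with changes between -1.06 and -0.73 and adjusted p-values between 0.0667 and 0.184. PKM came close to the threshold at -0.64 (adjusted p = 0.0544), with values of 2940, 3286 and 2662 against 2149, 1655 and 1918, groups that did not overlap. The summed hepatocyte markers moved from 85.1 to 560 in this comparison, and their part in these changes was not tested.

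Testing the difference of the Rego change between the backgrounds, PDK1, SLC2A3 and BNIP3 were called among the 33 members, where 5.87% of all genes were called, 2.92% lower and 2.95% higher. PDK1 fell by 1.52 more on the log2 scale in SNU449 than in SNU449-Axl-KO (SE 0.328, adjusted p = 0.0094, limma), SLC2A3 by 1.27 more (SE 0.334, adjusted p = 0.029) and BNIP3 by 1.19 more (SE 0.274, adjusted p = 0.0136). The difference for PDK1 was called without any single library. For BNIP3 it was lost without SNU449-Axl-KO-Rego replicate 1 (-1.09, adjusted p = 0.0597) or 2 (-1.13, adjusted p = 0.0512). For SLC2A3 it was lost without SNU449-ctrl replicate 3, SNU449-Rego replicate 2 or 3, SNU449-Axl-KO-ctrl replicate 2 or 3, or SNU449-Axl-KO-Rego replicate 1 or 2, with differences between -1.35 and -0.95 and adjusted p-values between 0.0553 and 0.116. Without SNU449-Axl-KO-Rego replicate 2 only 1 of the 3 members remained called. BNIP3L (-1.08, adjusted p = 0.0596) and LDHB (-0.91, adjusted p = 0.0649) came close to the threshold. The differences of LDHA (-0.47, 95% confidence interval -1.21 to 0.27), PGK1 (-0.68, -1.58 to 0.23) and HK1 (-0.16, -0.69 to 0.36) were not called, so these genes are not shown to respond differently in the 2 backgrounds.

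The loss of Axl alone was examined in naive cells. Comparing SNU449-Axl-KO-ctrl with SNU449-ctrl, PDK1, BNIP3 and PFKL fell and no member rose, where 7.45% of all genes were called, 3.43% lower and 4.03% higher. PDK1 changed by -1.37 (SE 0.232, adjusted p = 0.00119, limma) and BNIP3 by -1.03 (SE 0.194, adjusted p = 0.0029), and the libraries of the groups did not overlap for either gene. This comparison and the one of Rego in SNU449 share the SNU449-ctrl libraries, so that a high SNU449-ctrl enters both. PFKL, the main phosphofructokinase isoform of liver, had values of 234, 241 and 179 in SNU449-Axl-KO-ctrl, all under the 339 to 375 of SNU449-ctrl, and of 251, 198 and 257 in SNU449-Axl-KO-Rego. Its change was -0.74 (SE 0.199, adjusted p = 0.0291), and the call was lost without any of the SNU449-ctrl libraries or SNU449-Axl-KO-ctrl replicate 2 or 3, with changes between -0.85 and -0.56 and adjusted p-values between 0.0572 and 0.143. It was also lost with centring on the spike-in RNAs (-0.56, adjusted p = 0.156), under which the median of all genes moved to 0.19 and the median of the members from -0.19 to -0.01.

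In Rego-resistant cells, SNU449-Axl-KO-Rego was higher than SNU449-Rego for SLC2A3 and LDHB, and no member was lower, where 4.37% of all genes were called, 2.44% higher and 1.93% lower. SLC2A3 rose by 1.64 on the log2 scale (SE 0.236, adjusted p = 0.000374, limma) and LDHB by 1.09 (SE 0.198, adjusted p = 0.00349), and the libraries did not overlap for either gene. For LDHB, at mean normalized counts of 0 and 19.4, the limit of the expression filter given above holds here too. PDK1 and BNIP3 changed by 0.14 (95% confidence interval -0.35 to 0.63) and 0.17 (-0.24 to 0.57). The median of the members was 0.05 against 0.014 over all genes. Centring on the spike-in RNAs moved the median of all genes to 0.34 in this comparison and that of the members to 0.38, with 6 members called higher instead of 2. The summed hepatocyte markers were at 0.33 in SNU449-Rego and 560 in SNU449-Axl-KO-Rego, and their part in these differences was not tested.

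Across the 12 libraries, SNU449-ctrl had the highest mean level of the 4 groups for 19 of the 33 members, and for 25.5% of all genes. The lowest mean was that of SNU449-Rego for 14 members and that of SNU449-Axl-KO-Rego for 10, where these groups were lowest for 26.1% and 21.9% of all genes. Within SNU449-ctrl, replicate 3 was the highest library for 22 of the 33 members, against 34.2% of all genes, and among them were GAPDH with 11224 against 6959 and 7547, and TPI1 with 2487 against 1250 and 1340. In SNU449-Axl-KO-Rego, replicate 3 was the lowest library for 19 members, against 30.9% of all genes. Hence technical replicates of a group differed along these genes. Without SNU449-ctrl replicate 3, 8 of the 9 members that fell in SNU449-Rego remained called, and PGK1 did not.

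**Figure D3:**
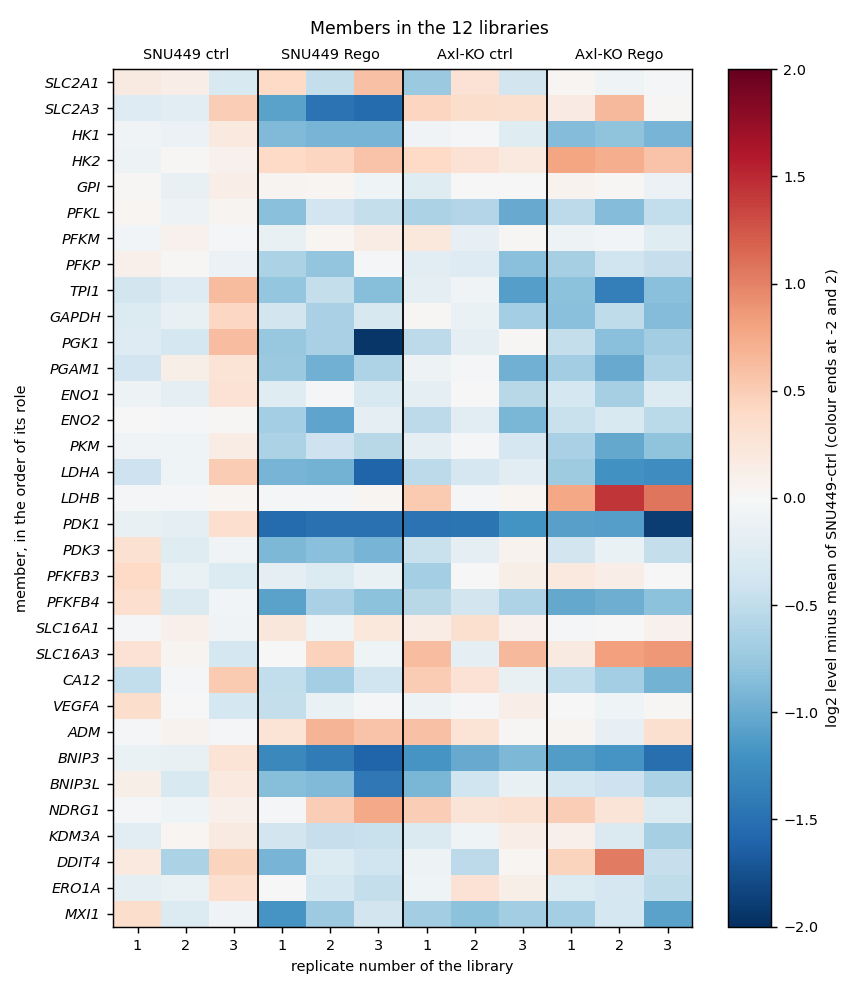
Level of each of the 33 members in the 12 libraries, as log2(value + 1) minus the mean of the 3 SNU449-ctrl libraries, with blue for lower and red for higher and the colour scale ending at -2 and 2. Rows follow the roles of the genes and columns the groups and replicate numbers. SNU449-Rego is blue for most members, PDK1 and BNIP3 are blue in all 3 groups other than SNU449-ctrl, and HK1 is blue in both Rego groups.

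In mean normalized counts, the members spanned a wide range. ENO1 was the highest member with 11754 in SNU449-ctrl and 9062 in SNU449-Rego, followed by GAPDH with 8431 and 5296. HK2, LDHB, NDRG1 and CA12 stayed under 20 in every group. QuantSeq gives 1 read per transcript, so that these counts are not divided by gene length. Between paralogs, the counts favoured LDHA over LDHB, HK1 over HK2 and PFKFB3 over PFKFB4 in each of the 4 groups, although differences in 3' end priming between genes were not tested.

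**Figure D4:**
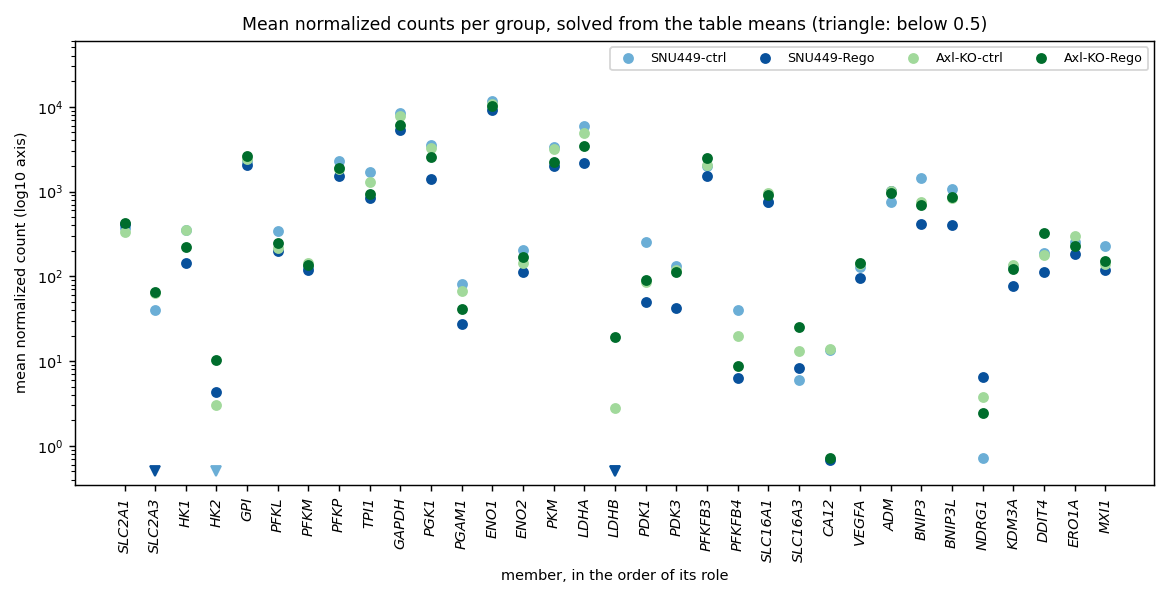
Mean normalized count (log10 axis) of the 33 members in each of the 4 groups, solved from the means of 7 tables, without error bars since the tables give no count per library. Triangles stand for values below 0.5. The dark blue points of SNU449-Rego are the lowest of the 4 for LDHA (2158), PGK1 (1408), PDK1 (50.1) and BNIP3 (409).

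Other genes of these pathways were counted from lists chosen by name. Their counts stand beside 4.31% of all genes higher and 3.5% lower in SNU449-Rego against SNU449-ctrl, and 2.54% and 1.81% for Rego in SNU449-Axl-KO. Of 26 further glycolysis genes 17 were tested, and 3 fell in SNU449-Rego against SNU449-ctrl, namely the glucose carriers SLC2A2 and SLC2A10 and the phosphoglucomutase PGM1, with none higher. SLC2A2, the carrier GLUT2 of hepatocytes, had values of 123, 134 and 242 in SNU449-ctrl and of 26, 25 and 20 in SNU449-Rego, groups that were far apart. Its change of -2.70 (SE 0.317, adjusted p = 2.66e-05, limma) exceeded that of any member on the level scale. Its mean normalized count went from 148 to a solved 0, so this change is compressed and does not rank it against members with low counts. None of the 10 genes of pyruvate entry and pyruvate dehydrogenase was called by limma in a Rego comparison. At an unadjusted p under 0.05 there was 1 in SNU449 and 2 in SNU449-Axl-KO, without a count of all genes at that threshold. Of the pentose phosphate pathway, 1 of 7 genes was called in SNU449, the transketolase TKT at -0.88, and of gluconeogenesis 1 of 3 tested genes, the mitochondrial PCK2 at 1.04.

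Of 35 tested other hypoxia-responsive genes, 2 rose and 4 fell in SNU449-Rego against SNU449-ctrl, with a median of -0.25 and 26 negative changes. The largest fall was that of P4HA1, a collagen prolyl hydroxylase, at -0.95 (adjusted p = 0.0153), and the largest rise that of EGLN3, an oxygen-sensing prolyl hydroxylase that is itself a HIF target, at 1.91 (adjusted p = 0.000196, limma). EGLN3 had values of 21, 24 and 27 in SNU449-ctrl and of 110, 123 and 58 in SNU449-Rego, and of at most 33 in both Axl-deficient groups. Its mean normalized counts were solved as 0 in SNU449-ctrl, 75.2 in SNU449-Rego, 5.65 in SNU449-Axl-KO-ctrl and 6.12 in SNU449-Axl-KO-Rego. EGLN3 was thus near the floor except where it was high, and its calls are no independent support. Within this limit, its change in SNU449 was opposite in sign to those of PDK1 and BNIP3. In SNU449-Axl-KO cells, 2 of the 35 genes rose with Rego resistance and none fell, led by the lipoprotein receptor VLDLR at 1.84.

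Of the HIF factors and hydroxylases, 7 of 10 were tested, and besides EGLN3 the partner subunit ARNT2 rose by 1.64 (adjusted p = 2.34e-05) and EPAS1, which encodes HIF-2alpha, fell by 1.40 on the log2 scale (adjusted p = 0.00337, limma) in Rego-resistant SNU449 cells. EPAS1 had values of 342, 290 and 199 in SNU449-ctrl and of 76, 121 and 114 in SNU449-Rego, which did not overlap. None of the 7 genes was called by limma in the Axl-deficient background, where 2 had an unadjusted p under 0.05. The share of all genes at that unadjusted threshold was not counted. The difference between backgrounds was called for EGLN3 and ARNT2 only, and the limit of low counts given above for EGLN3 holds here too.

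Between the backgrounds, 4.03% of all genes were called higher and 3.43% lower in control cells, and 2.44% and 1.93% in Rego-resistant cells. In SNU449-Axl-KO-ctrl against SNU449-ctrl, 2 further glycolysis genes fell, of which SLC2A2 changed most (-1.17), while 3 of the other hypoxia-responsive genes rose and 4 fell, led by the rise of the collagen lysyl hydroxylase PLOD2 (1.40). PLOD2 had values of 272, 303 and 253 in SNU449-ctrl and of 720, 715 and 751 in SNU449-Axl-KO-ctrl, so that it moved opposite to PDK1 and BNIP3 in the same libraries. Of the 10 genes of pyruvate entry and pyruvate dehydrogenase, 1 fell and 1 rose between the control groups. These were PDP2 at -0.72 (adjusted p = 0.0289) and PDHA1 at 0.56 (adjusted p = 0.0447, limma). In SNU449-Axl-KO-Rego against SNU449-Rego, TKT rose by 1.33 (adjusted p = 0.0011, limma) and EGLN3 fell by 1.92 on the log2 scale (adjusted p = 0.000307), which had the largest change of its list. For EGLN3, the limit of low counts given above holds in this comparison too. Of the further glycolysis genes, 1 rose and 1 fell there, led by the rise of PGM1 (0.84). The difference of the Rego change between the backgrounds was largest for SLC2A2 (-2.16) among the further glycolysis genes and for VLDLR (-2.19) among the other hypoxia-responsive genes, and for TKT it was -1.63.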

How the data were processed

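Total RNA of 12 libraries was sequenced by QuantSeq at Lexogen. Per the labels and the study's methods, the authors trimmed reads with cutadapt 4.0, aligned them to GRCh38 and spike-in sequences with STAR 2.5.3a, counted them per gene with GENCODE release 40, left out weakly expressed genes and ran DESeq2 with a term for the date of preparation. The deposited library values are scores, that is, rounded 2 raised to the variance-stabilised level after batch removal, and not counts. The deposited mean normalized count is a signal, the authors' mean over a table's libraries. Columns of the authors' fold changes and p-values were not used. Depth per library is unknown, and the sum of these means lay between 4.16e+06 and 4.92e+06 in a table.

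Group mean counts were solved from 7 tables. The median error of this fit to the table means was 0.268% over the 8180 genes used to scale the tables. It is not the error of a single group mean, which was not estimated, also not for weakly expressed genes. Levels, log2(value + 1), were analysed in R 4.3.3 with limma 3.58.1 (group means, replicate number as block, eBayes with trend) over 15601 genes without spike-ins, and called at a Benjamini-Hochberg adjusted p under 0.05. No label ties the number to a preparation date. The number was used as block because the means over same-numbered libraries were nearly equal, with a median SD of 0.002 on the log2 scale against 0.104 for means of 4 independent libraries. Deviations from the group means correlated at -0.485 to -0.091 over 18 same-numbered pairs and at -0.034 to 0.372 over 36 differently numbered pairs between groups. The fit was tested on simulated data. Members, gene lists and tests were chosen with earlier results of these data known. Members called in any comparison are given per library, and the others by range, some of them also per library. Of the other lists, the called gene with the largest change is named, and others named were chosen after their values were seen. Alternatives were other tables, no block, pseudocount 0, a mean value of at least 32, upper-quartile and spike-in scaling, eBayes without trend and libraries left out. Promoter windows are from RefSeq (GRCh38.p14), and gene positions from the deposited tables.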

Additional observations from a re-analysis of the deposited data

Results flagged for a closer look

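The change between Rego-resistant and control cells differed between the backgrounds, by the interaction term in limma, for 3 of the 33 members, where 5.87% of all genes were called. This count is near the share of all genes and is no trait of the members. The change in SNU449 minus that in SNU449-Axl-KO was -1.52 on the log2 scale for PDK1, -1.27 for SLC2A3 and -1.19 for BNIP3. PDK1 and BNIP3 were high in SNU449-ctrl only, and SLC2A3 was low in SNU449-Rego only. With 1 cell population per group, these differences cannot be told apart from differences between the populations.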

How the results depend on the processing

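Of the 20 changes of members that were called, none reversed under any alternative, 4 were called under every alternative (PDK1, BNIP3 and SLC2A3 in SNU449-Rego against SNU449-ctrl, and PDK1 in SNU449-Axl-KO-ctrl against SNU449-ctrl), and 16 were lost under at least 1. In SNU449-Rego against SNU449-ctrl, 9 members were called, and 15 with no replicate block (1 higher and 14 lower), 14 in the table of this pair with no replicate block, and 5 and 4 in all groups without number 1 and without number 2. For Rego in SNU449-Axl-KO, where 3 were called, the pair table with no replicate block gave 9, spike-in centring 1, leaving out 1 library 0 to 4, and all groups without number 1 and number 2 gave 1 and 0. For Axl in control cells, with 3 called, the pair table with no replicate block gave 7, and all groups without number 1 or without number 2 gave 1 each. For Axl in Rego-resistant cells, with 2 called, the pair table gave 4 with the replicate block and 7 without it, a minimum mean value of 32 gave 1, spike-in centring 6 and all groups without number 2 gave 0. For the difference of the Rego change, with 3 called, the fit with no replicate block gave 5, leaving out 1 library 1 to 4, and all groups without number 1 or without number 2 gave 0. Fits without a number had fewer libraries, and the fits that left out a number in all groups were added after seeing the data. For the other settings, the cause was not tested. In the pair table with the block, LDHA, PFKFB4 and PGK1 were no longer called in SNU449-Rego against SNU449-ctrl. The depth of each library is unknown, so that no counting error is given. Changes on the level scale are compressed, most for members with mean normalized counts under 20, but also above that. PDK1, for example, had mean normalized counts of 253 in SNU449-ctrl and 50.1 in SNU449-Rego, at a fitted fold of 2.84.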
